A study of Homo sapiens with 30 samples.

Results

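The effect of MLN4924 on transcript levels of A375 cells was compared between 8 and 4 h of exposure. Its change was computed for each gene as a difference of differences, MLN4924 minus DMSO at 8 h, less MLN4924 minus DMSO at 4 h. Its members are the 12 arrays, of 30 in the series, whose titles give either agent at 8 or 4 h. They form 4 groups of 3 arrays: 650 nM MLN4924 for 8 h, 650 nM MLN4924 for 4 h, 0.065% DMSO for 8 h and 0.065% DMSO for 4 h. A375 is 1 established human melanoma line with an activating BRAF mutation, and all groups were grown in the same serum-containing medium. Nothing in the labels says that replicates were separate cultures. The p-values therefore reflect only the spread among arrays within groups, taken over all 30 arrays of the series, which were fitted together. That spread may be technical.

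MLN4924 (pevonedistat) blocks the NEDD8-activating enzyme, which loads the small protein NEDD8 for transfer to cullins. Cullin-RING ligases need NEDD8 on the cullin for full activity, and without it their substrates are no longer degraded at the normal rate. Known substrates include the antioxidant factor NRF2 and the replication licensing factor CDT1. Extra CDT1 permits DNA to be replicated more than once in a cycle, which activates the DNA damage checkpoint and p53.

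Values are array signals after quantile normalization, with no unit. Differences are given on the scale of log2(signal + 32), each taken between the averages of groups with n = 3. The added 32 understates the differences of dim genes, since the median signal was 36.58. A gene was called when its adjusted p from limma (Benjamini-Hochberg over 19775 genes) was under 0.05. The MLN4924 arm below means MLN4924 8 h minus MLN4924 4 h, the DMSO arm means DMSO 8 h minus DMSO 4 h, and the change of effect is the first less the second.

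The 12 arrays were alike in quality. Their median deposited signals lay between 39.4 and 44 on the DMSO 8 h arrays, above the 32.6 to 38.2 of the other 9. The ratio of 3′ to 5′ signal was 1.144 to 1.43 for ACTB and 0.838 to 0.9388 for GAPDH. Arrays within a group correlated at 0.9878 to 0.9925 over the 19775 genes, each read from its brightest probe set, and none was a copy of another. On the first principal component, with 28.7% of the variance, the MLN4924 arrays scored 19.81 to 23.29 at 8 h and 6.51 to 9.07 at 4 h, against -18.05 to -15.85 for DMSO at 8 h and -12.33 to -10.82 at 4 h. Melanocyte lineage genes summed to 4682 to 5082 on the MLN4924 8 h arrays and 5805 to 6244 on the MLN4924 4 h arrays, against 7974 to 9023 on the DMSO 8 h and 7494 to 7858 on the DMSO 4 h arrays. A few bright genes weighed most in that sum: at 8 h ERBB3 averaged 795.6 in MLN4924 and 2632 in DMSO, SOX10 320.3 and 1059, and TFAP2B 115.5 and 746. The median effect of the 17 genes at 8 h was -0.11, and 5 of the 17 stayed under the median signal. At 8 h 2 of the 17 were called higher and 5 lower, against 8.35% and 6.83% of all genes. The lists of fibroblast (9 measured), epithelial and keratinocyte (9), blood cell (6) and endothelial markers (7) had 0 members called in the change of effect. Since 1.54% of all genes were called, 0 calls say little about lists this short. The epithelial and keratinocyte list summed to 3242 to 3739 on the MLN4924 8 h arrays, above the 2811 to 2952 of MLN4924 at 4 h, the 2601 to 2964 of DMSO at 8 h and the 2533 to 2852 of DMSO at 4 h. Most of that sum was KRT18, with 2970, 3282 and 2862 on the MLN4924 8 h arrays. CDH1 and EPCAM stayed under the median signal of all genes on the 12 arrays. They were among the 4 of 9 members whose means stayed under it in all 4 groups. The effect was called higher for 1 of the 9 at 8 h and for 1 at 4 h, against 8.35% and 1.84% of all genes. The fibroblast, blood cell and endothelial lists summed to at most 499.5, 595.3 and 180.4 on any array. The part of these markers in the results was not tested.

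Each array holds RNA of a whole culture, so fewer cells expressing a gene and less RNA per cell cannot be told apart. Between 4 and 8 h the effect of MLN4924 changed for a small group of genes. For most of them the MLN4924 arm moved further than the DMSO arm. The immediate early gene EGR1, the p53 targets GDF15 and CDKN1A and the stress factor ATF3 had the largest upward changes among genes named here. The cell cycle inhibitor CDKN1C, the hyaluronan-binding protein gene CEMIP and the transcription factor gene NFATC2 had the largest downward ones. In all, 304 of 19775 genes (1.54%) were called in the change of effect, 149 upwards (0.753%) and 155 downwards (0.784%), and 33 of the 304 differed by at least 2-fold. With arrays centred on their medians in place of quantile normalization, 273 genes were called and the split was 193 upwards and 80 downwards. In a fit of only the 12 arrays 117 genes were called, 54 upwards and 63 downwards. Without DMSO 4 h replicate 3 the count was 174, without MLN4924 8 h replicate 1 it was 188 and without MLN4924 4 h replicate 1 it was 191. Calls that held without each of the 12 arrays in turn numbered 136, of which 59 were upwards and 77 downwards.

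In the MLN4924 arm 792 genes (4.01%) were called, 379 up (1.92%) and 413 down (2.09%). In the DMSO arm 24 genes (0.121%) were called, 6 up (0.0303%) and 18 down (0.091%). With median centring the splits were 208 up and 392 down for MLN4924 and 5 up and 100 down for DMSO, so the DMSO arm depended strongly on the scaling. The count in the MLN4924 arm was 506 without MLN4924 4 h replicate 1, 515 without MLN4924 8 h replicate 1 and 523 without MLN4924 4 h replicate 3. The count in the DMSO arm was 1 without DMSO 4 h replicate 1, 3 without DMSO 4 h replicate 2 or DMSO 8 h replicate 1, 11 without DMSO 4 h replicate 3 and 14 without DMSO 8 h replicate 2. The brighter medians of the DMSO 8 h arrays move with this arm, and their part in it was not tested.

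Of the 304 genes, 239 (78.6%) were called in the MLN4924 arm alone, 104 with an upward and 135 with a downward change of effect. The DMSO arm alone was called for 6 genes, both arms for 2, and neither arm by itself for 57, 40 upwards and 17 downwards. The p-values were adjusted within each arm, so the DMSO arm, with far fewer calls, had the stricter cutoff. IGFBP4, with 0.52 in the MLN4924 arm and -0.70 in the DMSO arm, thus counts under the MLN4924 arm alone. By size rather than by call, the MLN4924 arm was the larger for 259 genes. It made up at least 66.7% of the summed movement for 199 genes, the DMSO arm did for 17, and 88 lay between. Of the 239 genes, 41 lay between. The median share of the MLN4924 arm was 67.6% for upward and 81.6% for downward changes. Each arm is a term of the change of effect and uses the same arrays, so these classes describe the genes and are not a second test. The class of 57 rested most on single arrays: 3 of its genes were called without each array in turn, against 129 of the 239.

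**Figure D1:**
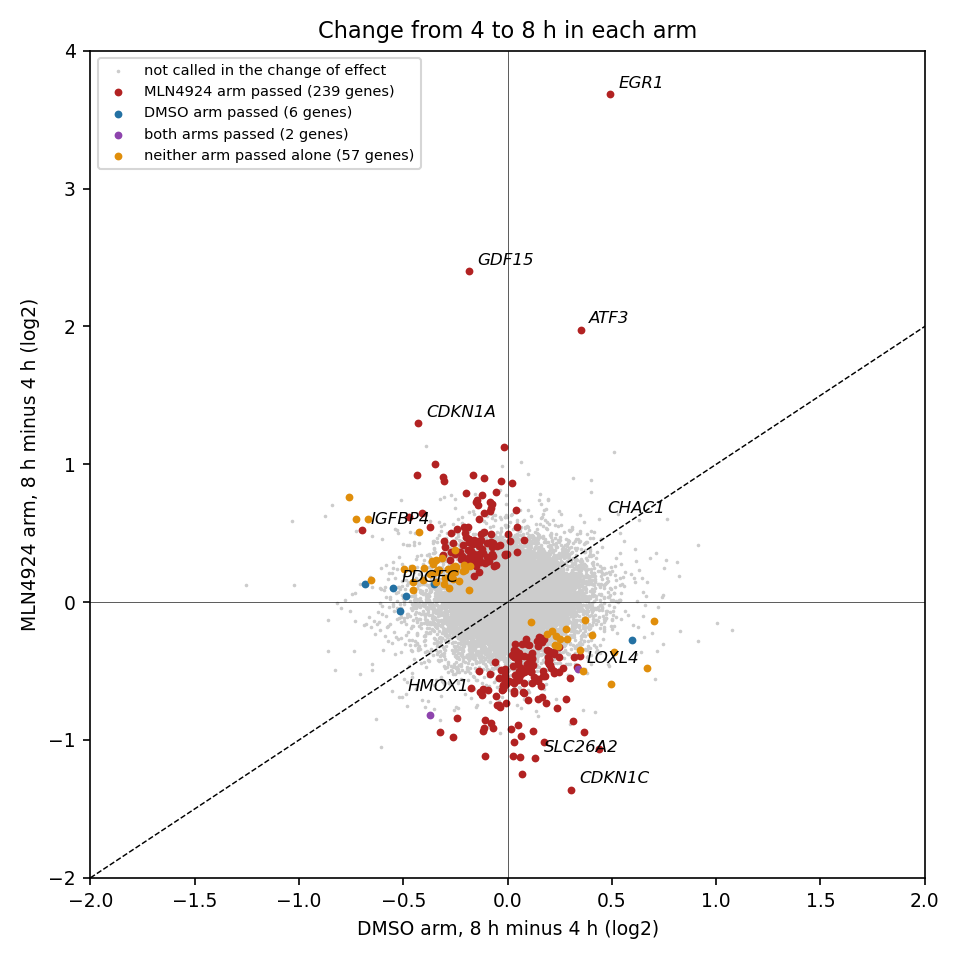
Change from 4 to 8 h in the MLN4924 arm (vertical axis, log2) against that in the DMSO arm (horizontal axis, log2), 1 point per gene, with genes called in the change of effect coloured by the arm that passed the test; the dashed line marks equal change in both arms. EGR1, GDF15, ATF3 and CDKN1A lie far above the line at DMSO changes between -0.43 and 0.49, while HMOX1 and CHAC1, with movement in both arms, lie near it.

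The effect itself was called for 3002 genes (15.2%) at 8 h, 1652 higher (8.35%) and 1350 lower (6.83%), and for 673 genes (3.4%) at 4 h, 363 higher (1.84%) and 310 lower (1.57%). Median centring moved these splits to 2798 higher and 807 lower at 8 h and to 447 higher and 212 lower at 4 h. Of the 304 genes of changed effect, 201 had an effect called at 8 h and not at 4 h, and 79 had one called at both times with the same sign and a larger size at 8 h. A further 12 had an effect called at 4 h and not at 8 h, 4 had effects of opposite sign, 1 had a smaller effect at 8 h, and 7 had an effect called at neither time. These counts share their arrays with the change of effect and are a description of it.

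**Figure D2:**
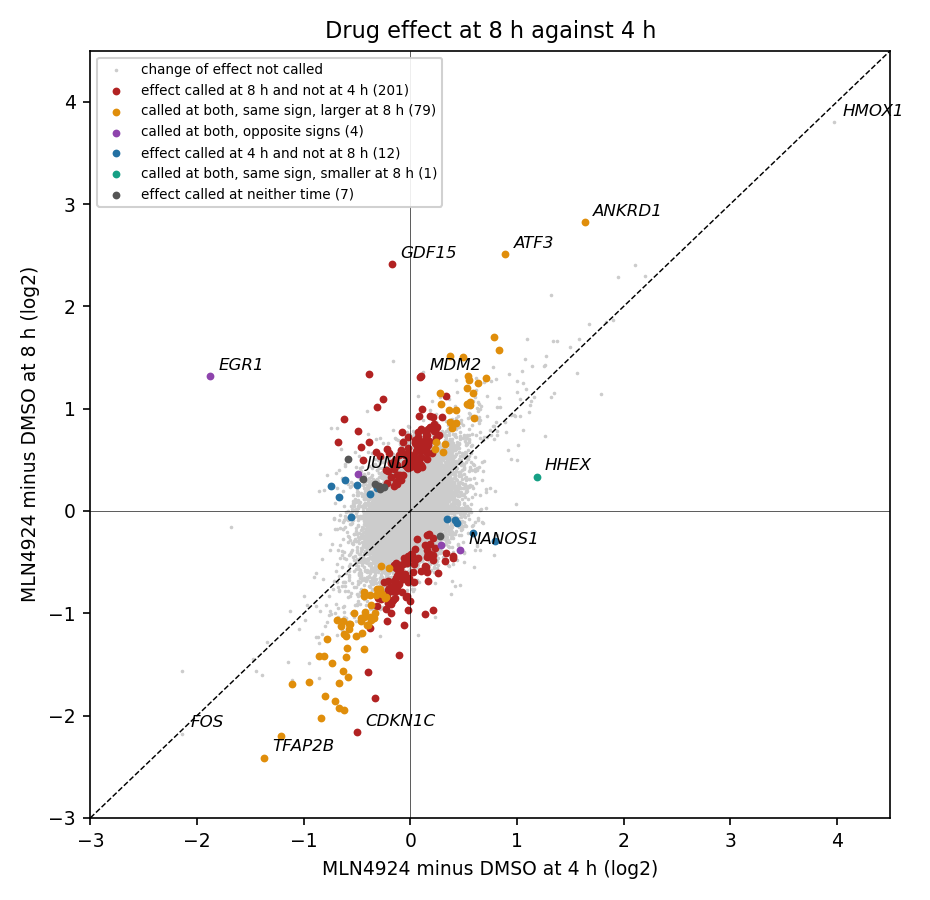
MLN4924 minus DMSO at 8 h (vertical axis, log2) against the same at 4 h (horizontal axis, log2), 1 point per gene, with the genes of changed effect coloured by where the effect was called; the dashed line marks equal effects. EGR1 sits at -1.87 at 4 h and 1.32 at 8 h, HHEX is the 1 gene with a smaller effect of the same sign, and FOS and HMOX1 lie near the line.

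EGR1, an immediate early transcription factor that growth factor and stress signals switch on within minutes, had the largest change of the 304 called genes. Its signals were 1334, 1174 and 1435 on the MLN4924 8 h arrays and 73.3, 69.1 and 74.65 on the MLN4924 4 h arrays, against 486, 548 and 484 on the DMSO 8 h arrays and 369.6, 314 and 370.4 on the DMSO 4 h arrays. The MLN4924 arrays were thus the lowest of the 4 groups at 4 h and the highest at 8 h, with no overlap between any groups. The effect was 1.32 at 8 h (SE 0.15, adjusted p = 6.1e-07 from limma) and -1.87 at 4 h (SE 0.15, adjusted p = 6.34e-09). The change of effect was 3.20 (SE 0.21, adjusted p = 3.75e-09), made up of 3.69 in the MLN4924 arm less 0.49 in the DMSO arm. The DMSO arm did not pass (adjusted p = 0.254). Both other probe sets of EGR1 differed in the same direction, by 2.70 and 2.05. Over the 5 times, EGR1 averaged 287.8, 160.6, 72.4, 1314 and 1454 in MLN4924 at 1, 2, 4, 8 and 24 h, against 185.1, 313.7, 351.4, 505.9 and 701.4 in DMSO, so 4 h was the lowest point of the MLN4924 series.

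JUND, a member of the AP-1 family that pairs with FOS proteins, was the other gene of this list with effects of opposite sign. Its signals were 1780, 1597 and 1564 in MLN4924 at 8 h and 998, 868 and 806 in MLN4924 at 4 h, against 1386, 1199 and 1248 in DMSO at 8 h and 1273, 1195 and 1309 in DMSO at 4 h. The DMSO groups overlapped, while MLN4924 lay below both at 4 h and above both at 8 h. The effect was 0.36 at 8 h (adjusted p = 0.0298 from limma) and -0.49 at 4 h (adjusted p = 0.0109), and the change of effect was 0.85 (SE 0.16, adjusted p = 0.00453). Its other 3 probe sets were dim, with means of 33 to 41.8, and with the mean of all 4 the difference was 0.31 and no longer called (adjusted p = 0.482).

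ATF3, a stress-induced factor of the CREB family and a target of ATF4, rose in the MLN4924 arm and already had an effect at 4 h. Its signals were 712.5, 736 and 665 in MLN4924 at 8 h and 169.6, 160.3 and 136 in MLN4924 at 4 h, against 105, 105 and 81.55 in DMSO at 8 h and 66.7, 66.6 and 73.7 in DMSO at 4 h. No group overlapped another. The change of effect was 1.63 (SE 0.15, adjusted p = 1.18e-06 from limma), with an effect of 2.51 at 8 h and 0.89 at 4 h. Without probe sets that can match several transcripts (_x_at and _s_at) a dimmer probe set stood in, which gave 0.53 and no call (adjusted p = 0.355).

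IER3, an early response gene that limits cell death, followed another course. Its signals were 2585, 2506 and 2483 in MLN4924 at 8 h and 1665, 1933 and 1760 in MLN4924 at 4 h, against 2572, 2645 and 2676 in DMSO at 8 h and 2511, 2676 and 2711 in DMSO at 4 h. MLN4924 arrays stood below all others at 4 h and overlapped DMSO at 8 h. The effect of -0.55 at 4 h (adjusted p = 1.43e-05 from limma) was followed by -0.06 at 8 h (adjusted p = 0.697), a change of 0.49 (SE 0.10, adjusted p = 0.0105) that lay wholly in the MLN4924 arm. In a fit of only the 12 arrays its adjusted p was 0.052.

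Among the 25 measured immediate early and AP-1 genes, 5 were called upwards (20%) and 0 downwards, against a background of 0.753% and 0.784% of all genes. IER5, which is induced by serum and stress, was named after its values were seen: its change was 0.33 (adjusted p = 0.0269 from limma), which ended without each of 8 of the 12 arrays (adjusted p up to 0.08). The list's median was 0.14, against 0.011 over all genes. In the MLN4924 arm 9 of its genes were called up and 2 down, where 1.92% and 2.09% of all genes were. In the DMSO arm 0 of its genes were called, where 0.121% of all genes were. With _x_at and _s_at probe sets left out 1 of its genes was called upwards. EGR1, JUND and IER3 had no probe set left in that fit and were not tested there. In the fit of 12 arrays 3 genes of the list were called upwards.

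Other genes of the same list were not called. FOS had signals of 122, 204.8 and 150.9 in MLN4924 at 8 h and 105, 82.2 and 91.2 in MLN4924 at 4 h, against 860.3, 869.6 and 734 in DMSO at 8 h and 550.5, 521 and 482 in DMSO at 4 h. The effect was -2.18 at 8 h and -2.14 at 4 h, both called, and the change of effect was -0.04 with an SE of 0.28 (adjusted p = 0.981 from limma). FOSB, lower with MLN4924 at both times, had a change of 0.58 (SE 0.42, adjusted p = 0.628). JUN rose in the MLN4924 arm by 0.80 (adjusted p = 0.000148), but its DMSO arm was 0.40 and its change of effect, 0.40 (SE 0.17), was not called (adjusted p = 0.303). MYC, higher with MLN4924 by 1.35 at 8 h and 1.57 at 4 h, had a change of -0.21 (SE 0.13, adjusted p = 0.541).

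**Figure D3:**
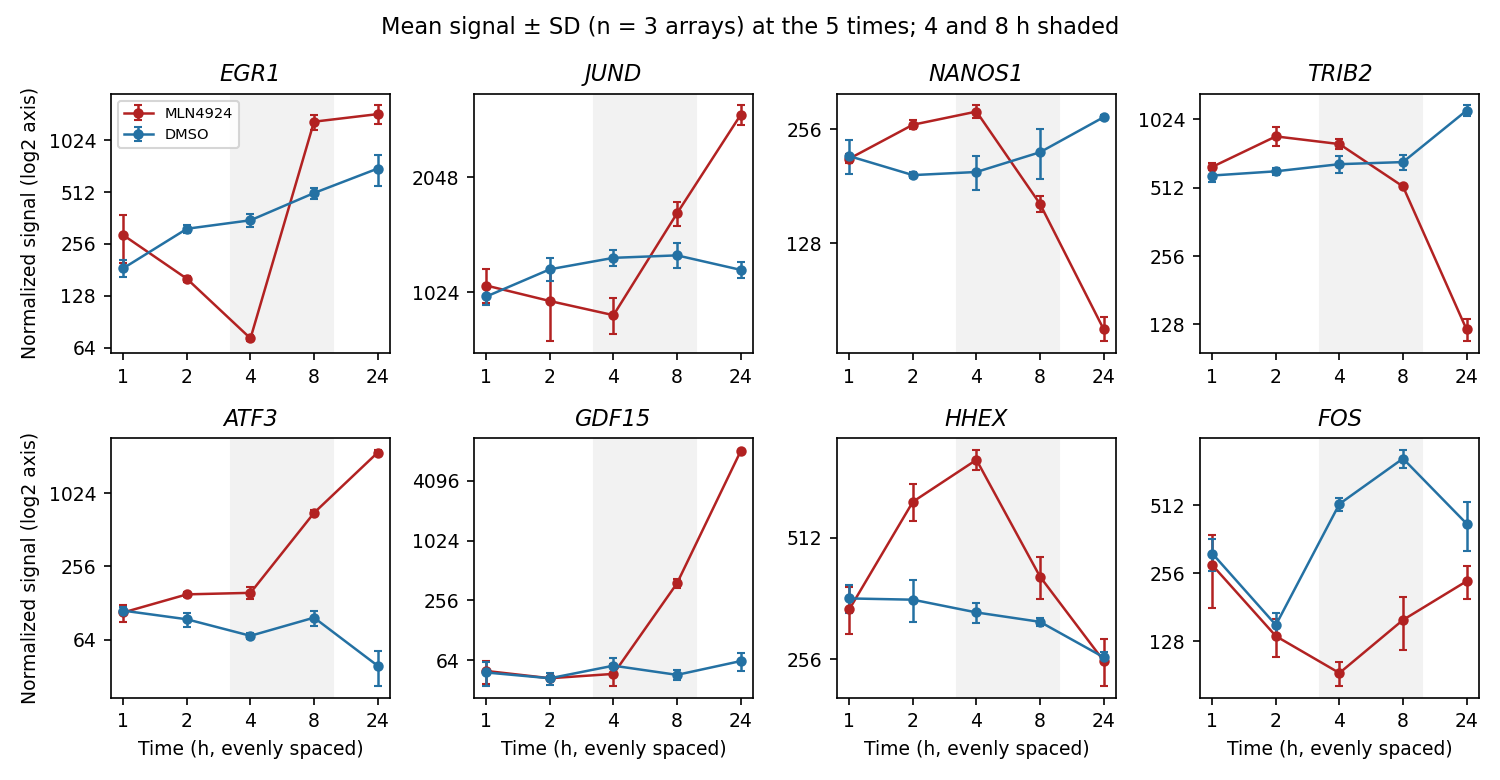
Mean signal (log2 axis) ± SD of 3 arrays in MLN4924 and DMSO at 1, 2, 4, 8 and 24 h for the 4 genes with effects of opposite sign at 8 and 4 h (EGR1, JUND, NANOS1, TRIB2) and for ATF3, GDF15, HHEX and FOS; 4 and 8 h are shaded and times are evenly spaced. The MLN4924 and DMSO lines of the first 4 genes cross between 4 and 8 h, HHEX returns towards DMSO after a peak at 4 h, and the FOS lines do not meet again after 2 h.

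The 250 bases before the annotated starts of EGR1, ATF3 and JUND are shown because these were the immediate early genes with the largest changes of effect that had an entry in the RefSeq promoter table (build GRCh38.p14). Capitals mark matches, on either strand, to the CArG box, which serum response factor binds, and to TGACGTCA or its part TGACGT, which CREB and ATF factors bind.
EGR1 (chr5:138465229-138465478, plus strand): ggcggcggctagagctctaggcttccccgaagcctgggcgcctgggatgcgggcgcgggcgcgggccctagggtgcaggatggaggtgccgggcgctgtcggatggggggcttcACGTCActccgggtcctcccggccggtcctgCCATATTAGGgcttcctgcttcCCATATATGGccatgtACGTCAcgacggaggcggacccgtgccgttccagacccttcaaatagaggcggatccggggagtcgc
ATF3, first start (chr1:212565157-212565406, plus strand): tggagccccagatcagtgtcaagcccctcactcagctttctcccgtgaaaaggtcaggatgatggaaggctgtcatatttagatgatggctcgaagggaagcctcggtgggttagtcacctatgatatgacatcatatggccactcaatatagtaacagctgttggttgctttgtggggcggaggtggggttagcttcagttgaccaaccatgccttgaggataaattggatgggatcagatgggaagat
ATF3, second start (chr1:212614768-212615017, plus strand): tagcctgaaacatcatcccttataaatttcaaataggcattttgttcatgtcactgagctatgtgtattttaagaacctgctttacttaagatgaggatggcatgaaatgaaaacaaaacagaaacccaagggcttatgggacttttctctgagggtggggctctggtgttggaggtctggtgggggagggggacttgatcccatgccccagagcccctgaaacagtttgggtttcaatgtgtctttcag
JUND (chr19:18281623-18281872, minus strand): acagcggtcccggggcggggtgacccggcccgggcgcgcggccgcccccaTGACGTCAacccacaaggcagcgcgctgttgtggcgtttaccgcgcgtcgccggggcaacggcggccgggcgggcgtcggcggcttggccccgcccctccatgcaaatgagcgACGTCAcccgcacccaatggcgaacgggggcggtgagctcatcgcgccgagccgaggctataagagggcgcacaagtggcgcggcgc
EGR1 holds 2 CArG boxes, at positions -105 to -96 and -83 to -74, and 2 TGACGT matches, where -1 is the base before the start. JUND holds TGACGTCA at -200 to -193, which contains TGACGT on both strands, and 1 more TGACGT at -87 to -82. Of 35116 such windows 1.16% hold a CArG box and 0.0313% hold at least 2, 1.65% hold TGACGTCA, and 7.1% hold TGACGT. The ATF3 windows, and that of IER5, do not hold these letters. A match describes the sequence only, and no binding was measured.

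The p53 targets made up the list with the highest share of members called. Of 27 measured, 9 were called upwards (33.3%) and 0 downwards, with a median of 0.36, against 0.753% upwards and a median of 0.011 over all genes. In the MLN4924 arm 12 were called up and 0 down, against 0 in the DMSO arm, where 1.92% and 0.0303% of all genes were called up. The effect was called upwards for 14 and downwards for 1 of them at 8 h, and for 4 and 1 at 4 h. Over all genes the effect was called upwards for 8.35% at 8 h and 1.84% at 4 h. The list had 9 upward calls with the signals as deposited, 11 with median centring and 3 without _x_at and _s_at probe sets. In that last fit CDKN1A, SESN1 and AEN had no probe set left and were not tested. For GDF15, MDM2 and FAS dimmer probe sets stood in.

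GDF15, a secreted stress cytokine, had signals of 401.8, 404.6 and 336 in MLN4924 at 8 h and 56.3, 34 and 49.1 in MLN4924 at 4 h, against 51.7, 43.45 and 41.2 in DMSO at 8 h and 51.1, 68.4 and 49.3 in DMSO at 4 h. The 3 arrays of MLN4924 at 8 h stood alone, and the other 9 overlapped. Its change of effect was 2.59 (SE 0.18, adjusted p = 7.39e-09 from limma). That value rests on an _x_at probe set. Its other probe sets were near 0, and gave 0.39 (SE 0.17) at a mean signal of 4.87 and -0.02 (SE 0.08) at 2.46. In MLN4924 at 24 h GDF15 averaged 8149, against 62.6 in DMSO.

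CDKN1A encodes p21, which inhibits cyclin-dependent kinases. Its signals were 737, 789 and 813 in MLN4924 at 8 h and 338, 289 and 269.9 in MLN4924 at 4 h, against 360.3, 218 and 302 in DMSO at 8 h and 469.7, 392.5 and 345 in DMSO at 4 h. The MLN4924 8 h arrays stood above all others, while at 4 h every MLN4924 array lay below every DMSO array. The effect at 4 h, -0.39, was not called (adjusted p = 0.133 from limma). The effect at 8 h was 1.34, and the change of effect was 1.73 (SE 0.19, adjusted p = 8.93e-06), of which 1.30 lay in the MLN4924 arm and 0.43 in a downward difference of the DMSO arm that did not pass (adjusted p = 0.254).

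MDM2, the ubiquitin ligase that degrades p53, had signals of 2320, 1982 and 2121 in MLN4924 at 8 h and 1047, 1201 and 1136 in MLN4924 at 4 h, against 791, 888 and 839 in DMSO at 8 h and 1050, 1017 and 1072 in DMSO at 4 h. The MLN4924 8 h arrays were again above all others. Its change of effect was 1.21 (SE 0.13, adjusted p = 1.01e-05 from limma), and 0.86 and not called from its brightest probe set without an _x_at or _s_at suffix (adjusted p = 0.226). GADD45A, a growth arrest gene, had an effect called at both times, 1.51 at 8 h and 0.49 at 4 h, and a change of 1.02 (adjusted p = 0.000166).

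The other called p53 targets were named after their values were seen. PPM1D, a phosphatase that shuts off the p53 response, changed by 0.85 (adjusted p = 2.14e-05 from limma). FAS, a death receptor, changed by 0.76 (adjusted p = 4.79e-05), and by 0.47 without _x_at and _s_at probe sets (adjusted p = 0.426). SESN1, a stress regulator of mTORC1, changed by 0.74 (adjusted p = 0.000523). AEN, a nuclease, changed by 0.58 (adjusted p = 0.00734), and TIGAR, a regulator of sugar phosphate metabolism, by 0.42 (adjusted p = 0.0243). The call of AEN ended in the fit of the 12 arrays (adjusted p = 0.0936), and that of TIGAR there (0.196) and without each of 9 arrays (up to 0.0757). PLK2, a further p53 target, was higher with MLN4924 at both times, by 0.74 at 8 h and 0.42 at 4 h, and its change of 0.31 was not called (adjusted p = 0.16).

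MIR34A, the host of a microRNA that p53 induces, was also called, and was likewise chosen after its values were seen. The main mature product is shown with bases 2 to 8, the seed that pairs with targets, in capitals.
hsa-miR-34a-5p (chr1:9151735-9151756, minus strand, GRCh38.p14, RefSeq): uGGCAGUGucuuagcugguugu
The array measured a transcript assigned to the MIR34A gene, not the mature microRNA. Its signals were 175.8, 165 and 167 in MLN4924 at 8 h and 120.7, 119 and 139.5 in MLN4924 at 4 h, against 88.6, 86.3 and 94.1 in DMSO at 8 h and 114, 121 and 121.5 in DMSO at 4 h. At 4 h MLN4924 and DMSO overlapped, and at 8 h they did not. The change of effect was 0.66 (SE 0.13, adjusted p = 0.00905 from limma), 0.34 from a called rise in the MLN4924 arm and the rest from a difference of -0.31 in the DMSO arm that was not called (adjusted p = 0.241).

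**Figure D4:**
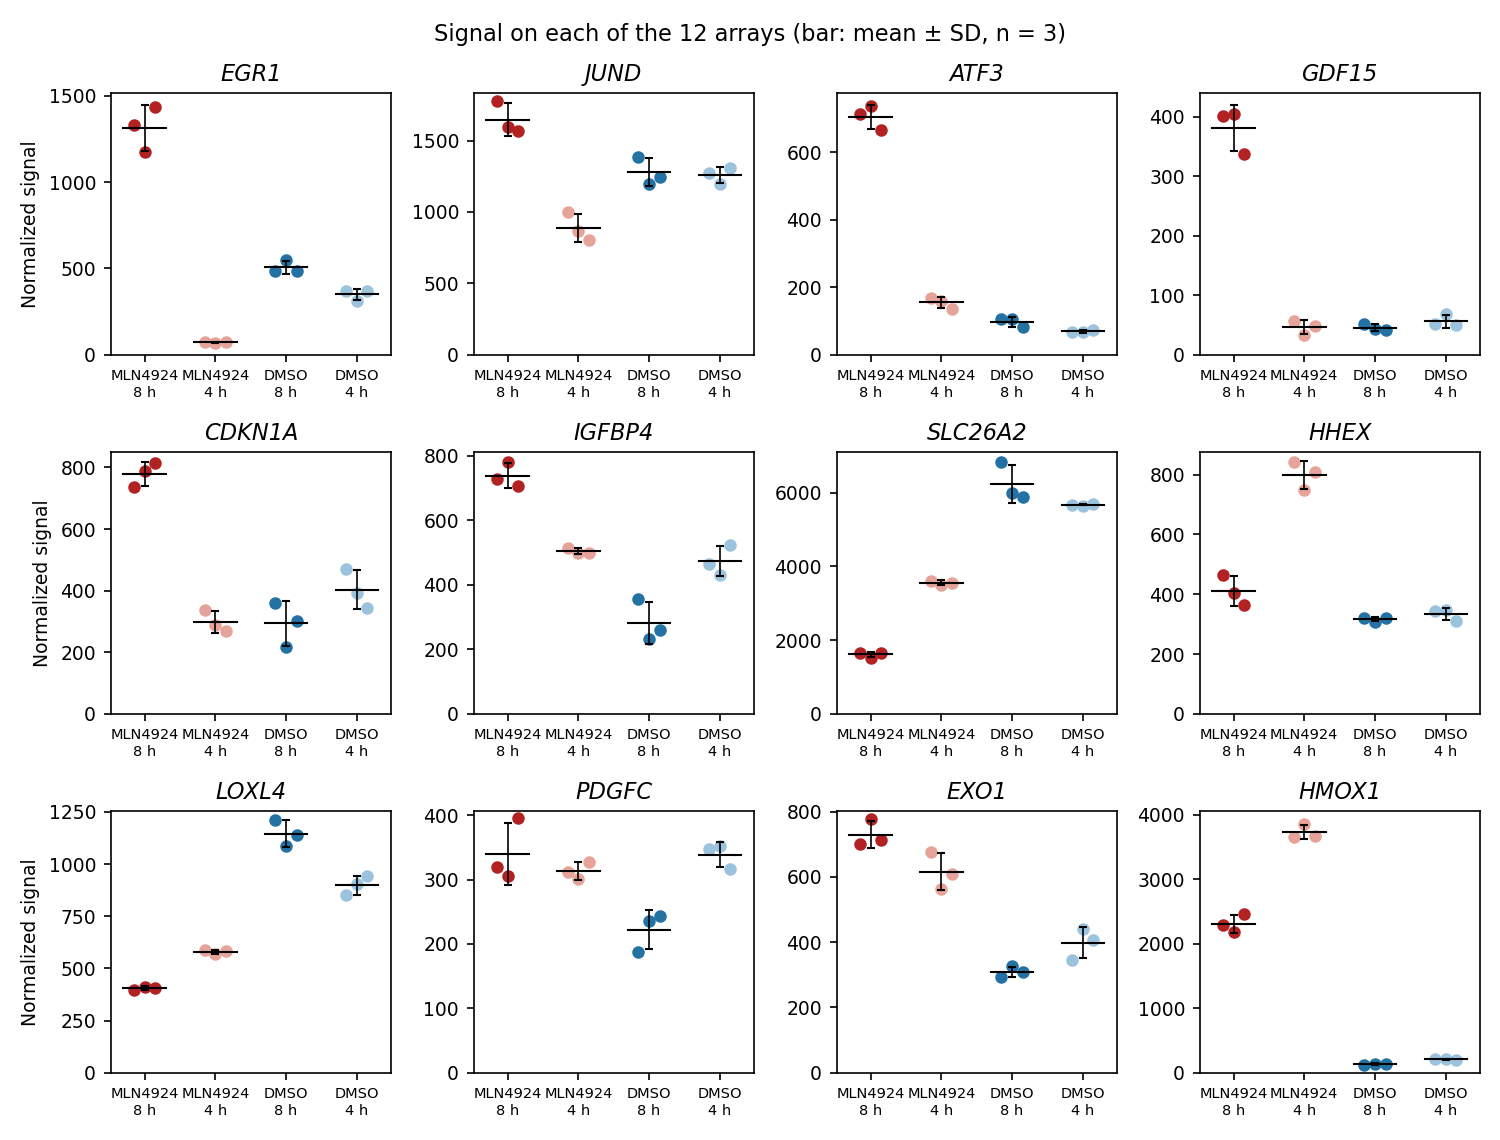
Normalized signal of 12 genes on each of the 12 arrays, 3 per group, ordered MLN4924 8 h, MLN4924 4 h, DMSO 8 h and DMSO 4 h, with bars for the mean ± SD. In EGR1, ATF3, GDF15 and CDKN1A the MLN4924 8 h arrays stand above all others, in SLC26A2 they stand below, in PDGFC the DMSO 8 h arrays stand below the other 9, and in HMOX1 both agents are lower at 8 h than at 4 h.

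Of 16 measured genes of DNA repair and checkpoints, 3 were called upwards (18.8%, against 0.753% of all genes) and 0 downwards, and the list median was 0.24, against 0.011 over all genes. In these 3 neither arm passed by itself. EXO1, an exonuclease of mismatch repair and end resection, had signals of 701, 776 and 712 in MLN4924 at 8 h and 676, 563 and 608 in MLN4924 at 4 h, against 295, 326 and 307 in DMSO at 8 h and 347, 442 and 407.5 in DMSO at 4 h. Its arms were 0.24 for MLN4924 (adjusted p = 0.107 from limma) and -0.33 for DMSO (adjusted p = 0.112). The effect was 1.16 at 8 h and 0.59 at 4 h, and the change of 0.57 (adjusted p = 0.00734) was not called in the fit of 12 arrays (adjusted p = 0.102). BARD1, the partner of BRCA1, changed by 0.50 (adjusted p = 0.0161), with an adjusted p of 0.0515 without DMSO 4 h replicate 3 and 0.0669 in the fit of 12 arrays. BRIP1, a helicase that binds BRCA1, changed by 0.56 (adjusted p = 0.0345), and its call ended without each of 7 arrays (up to 0.102), in the fit of 12 arrays (0.143) and with the mean of its probe sets (0.22, adjusted p = 0.358). The other probe set of BRIP1 gave -0.11.

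Of 36 genes of G1/S and DNA replication, 1 was called (2.78%, against 1.54% of all genes), and it lay in the class of the MLN4924 arm. E2F7, a repressor of the E2F family that p53 also induces, had an effect of 0.80 at 8 h and 0.10 at 4 h, a change of 0.70 (SE 0.11, adjusted p = 0.000758 from limma). An effect was called upwards for 19 genes of the list at 8 h, against 8.35% of all genes, and for 4 at 4 h, against 1.84% of all genes. The median change of effect was 0.14. CDC25A, the phosphatase that activates CDK2, had a change of 0.55 (adjusted p = 0.0578), and CCNE1, cyclin E1, one of 0.37 (adjusted p = 0.175). CDC25A passed with median centring (0.0499), with 64 added before log2 (0.0474), with dim genes left out (0.0372) and with limma trend (0.0419). Counting the fits with 1 array left out, it passed in 5 of 24 alternatives, with values of 0.24 to 0.62 and an adjusted p of up to 0.223. Its dimmer probe sets gave 0.18 and 0. Genes of G2/M and mitosis (27 measured) and histones (10) had 0 calls in the change of effect.

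Targets of ATF4, the factor that answers amino acid shortage and related stress, had 3 of 25 members called upwards (12%, against 0.753% of all genes), 0 downwards and a median of 0.20, against 0.011 over all genes. CTH, which makes cysteine from cystathionine, had signals of 734, 664 and 859.9 in MLN4924 at 8 h and 452, 559 and 501 in MLN4924 at 4 h, against 286, 316 and 265 in DMSO at 8 h and 359, 347 and 299 in DMSO at 4 h. No MLN4924 array overlapped a DMSO array at either time, and the change of effect was 0.74 (SE 0.15, adjusted p = 0.0123 from limma), with an adjusted p of 0.0761 in the fit of 12 arrays. SESN2, a regulator of mTORC1, changed by 0.91 (adjusted p = 0.0429), a call that ended without each of 10 arrays (up to 0.121). MTHFD2, of mitochondrial folate metabolism, changed by 0.27 (adjusted p = 0.0297), a call that ended without each of 8 arrays (up to 0.0824).

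2 stress genes show movement in both arms with little change of effect. CHAC1, which degrades glutathione, rose in the MLN4924 arm by 0.60 and in the DMSO arm by 0.44, both called, and its change of effect was 0.17 (SE 0.12, adjusted p = 0.627 from limma). HMOX1, haem oxygenase 1 and a target of NRF2, had signals of 2285, 2176 and 2460 in MLN4924 at 8 h and 3665, 3866 and 3670 in MLN4924 at 4 h, against 125.6, 138 and 142 in DMSO at 8 h and 207, 220.5 and 196 in DMSO at 4 h. It fell by 0.69 on the log2 scale in the MLN4924 arm and by 0.52 in the DMSO arm, both called, and its change of effect was -0.17 (SE 0.14, adjusted p = 0.685). In all, 9 genes were called in both arms in the same direction, and 1 of them was also called in the change of effect.

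That 1 gene was BICD1, an adaptor of the dynein motor, which fell by 0.82 in the MLN4924 arm and by 0.37 in the DMSO arm on the log2 scale. Its change of -0.44 (adjusted p = 0.0293 from limma) was not called without each of 8 arrays (up to 0.0974), with median centring (0.097) or in the fit of 12 arrays (0.137). Its 5 dimmer probe sets gave -0.31 to 0.36, and the mean of all 6 gave -0.04 (adjusted p = 0.925). The NRF2 targets had an effect called upwards for 26 of 33 members at 8 h and for 22 at 4 h, against 8.35% and 1.84% of all genes. In the change of effect 1 of the 33 was called (3.03%), near the 1.54% of all genes. That was GSR, glutathione reductase, with an effect of 1.2 at 8 h, 0.53 at 4 h and a change of 0.67 (adjusted p = 0.00459), not called with the mean of its probe sets (0.146) or in the fit of 12 arrays (0.085). SRXN1, which repairs oxidized peroxiredoxins, had effects of 2.29 at 8 h and 1.95 at 4 h and a change of 0.34 that did not pass (adjusted p = 0.109).

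ANKRD1, a transcript of YAP and serum response factor, had signals of 559, 636 and 563 in MLN4924 at 8 h and 272, 344 and 297 in MLN4924 at 4 h, against 53.3, 58.6 and 53.9 in DMSO at 8 h and 67.2, 94.1 and 68.1 in DMSO at 4 h. Its MLN4924 arrays lay above all DMSO arrays at both times, and the effect was 2.82 at 8 h and 1.64 at 4 h, a change of 1.19 (SE 0.17, adjusted p = 0.000313 from limma). It was the 1 called member of 19 SRF and YAP targets (5.26%, against 1.54% of all genes). SOD2, mitochondrial superoxide dismutase and a target of NF-kB, changed by 1.35 (SE 0.21, adjusted p = 0.000638), with an effect of 1.10 at 8 h and -0.25, not called, at 4 h.

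SOD2 and the cytokine LIF were the called members of 20 NF-kB targets (10%, against 0.753% of all genes upwards), whose median was -0.02. LIF changed by 0.51 (adjusted p = 0.0369 from limma), a call that ended without each of 10 arrays (up to 0.10). Of 19 outputs of the MAPK pathway, LIF and MAFF, a small MAF factor, were called upwards and PHLDA1 downwards. That was 15.8% of the list, against 1.54% of all genes. MAFF changed by 0.50 (adjusted p = 0.00158), and was not called with the mean of its probe sets (0.276) or in the fit of 12 arrays (0.0641). PHLDA1, a protein of the pleckstrin homology family, changed by -0.72 (SE 0.10, adjusted p = 0.000278), with an effect of -1.23 at 8 h and -0.50 at 4 h. SPRY2, an inhibitor of receptor signalling, had effects of -1.61 at 8 h and -1.39 at 4 h and a change of -0.22 that did not pass (adjusted p = 0.374).

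The largest downward change was that of CDKN1C, the p57 inhibitor of cyclin-dependent kinases. Its signals were 82.8, 56.8 and 61.3 in MLN4924 at 8 h and 209, 235 and 218 in MLN4924 at 4 h, against 302, 469 and 476.5 in DMSO at 8 h and 265, 312 and 412 in DMSO at 4 h. The DMSO groups overlapped, and MLN4924 at 8 h lay below all others. The effect was -2.16 at 8 h and -0.50, not called, at 4 h, and the change was -1.66 (SE 0.27, adjusted p = 0.00121 from limma). SLC26A2, a sulphate transporter, had signals of 1648, 1525 and 1652 in MLN4924 at 8 h and 3615, 3492 and 3559 in MLN4924 at 4 h, against 6823, 5983 and 5873 in DMSO at 8 h and 5671, 5650 and 5680 in DMSO at 4 h. No groups overlapped, and the change of -1.26 (SE 0.09, adjusted p = 1.69e-08) added to an effect of -0.67 at 4 h.

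CEMIP, which takes part in hyaluronan breakdown, changed by -1.50 (SE 0.16, adjusted p = 6.63e-06 from limma). ART3, a member of the ADP-ribosyltransferase family at the cell surface, changed by -1.30 (SE 0.14, adjusted p = 1.01e-05). EPHA3, an ephrin receptor, changed by -1.18 (SE 0.17, adjusted p = 0.00028), and SLITRK6, a leucine-rich repeat membrane protein, by -1.14 (SE 0.15, adjusted p = 6.21e-05). For CEMIP, EPHA3 and SLITRK6 the call rests on an _s_at probe set. Without such sets the values were -0.02, -0.03 and -0.61 and not called. Those of CEMIP and EPHA3 came from dim probe sets, with mean signals of 2.52 and 9.35, which cannot decide whether the change holds. That of SLITRK6 came from a probe set with a mean signal of 318.1. A dimmer _s_at probe set of EPHA3, with a mean signal of 38.7, gave -1.04 (SE 0.23). ITGB8, an integrin subunit, changed by -1.18 (adjusted p = 0.02), a call that ended without each of 5 arrays (up to 0.0727). In all 5 genes the MLN4924 arm was called and the DMSO arm was not.

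Of the intracellular proteins, NFATC2, a transcription factor that calcineurin activates, had signals of 129, 113 and 133 in MLN4924 at 8 h and 304, 381 and 342 in MLN4924 at 4 h, against 677, 507 and 544 in DMSO at 8 h and 515, 573 and 542 in DMSO at 4 h. The DMSO groups overlapped each other and no MLN4924 group. Its change was -1.32 (SE 0.21, adjusted p = 0.00118 from limma). POLD4, the small subunit of DNA polymerase delta, had an effect of -1.12 at 8 h and -0.06, not called, at 4 h, and a change of -1.06 (SE 0.18, adjusted p = 0.00232).

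Feedback genes of TGF-beta and activin signalling formed the list with the highest share of downward calls. Of 16 measured, 0 were called upwards and 4 downwards (25%, against 0.784% of all genes), and the list median was -0.10. In the MLN4924 arm 6 were called down, where 2.09% of all genes were. In the DMSO arm 0 were, where 0.091% of all genes were. In the change of effect 2 were called downwards with median centring, 3 with signals as deposited and 2 in the fit of 12 arrays. FST, follistatin, which binds and blocks activin, had signals of 585, 594 and 601 in MLN4924 at 8 h and 1334, 1272 and 1359 in MLN4924 at 4 h, against 2284, 2095 and 2101 in DMSO at 8 h and 2352, 2252 and 2386 in DMSO at 4 h. MLN4924 lay below DMSO at both times and the gap widened, with a change of -1.01 (SE 0.11, adjusted p = 1.01e-05 from limma).

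PMEPA1, an inhibitor of SMAD signalling, had signals of 287, 317 and 302 in MLN4924 at 8 h, while the other 9 arrays lay between 526.4 and 663.7 and overlapped. Its change was -0.94 (SE 0.17, adjusted p = 0.00404 from limma). TGIF1, a SMAD corepressor, changed by -0.58 (adjusted p = 0.00734), and was not called with median centring (0.054), with the mean of its probe sets (0.613), without _x_at and _s_at probe sets (0.456) or in the fit of 12 arrays (0.0612). BAMBI, a receptor decoy, changed by -0.34 (adjusted p = 0.032), and was not called with median centring (0.31), with signals as deposited (0.0649), in the fit of 12 arrays (0.176) or without each of 6 arrays (up to 0.0944).

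Of 17 melanocyte lineage genes, 2 were called downwards (11.8%, against 0.784% of all genes) and 0 upwards, and the median was -0.08. TFAP2B, a transcription factor of neural crest cells, had signals of 129.9, 130.3 and 86.35 in MLN4924 at 8 h and 225, 285 and 257 in MLN4924 at 4 h, against 804, 689 and 745 in DMSO at 8 h and 659.9, 750 and 728 in DMSO at 4 h. The DMSO groups overlapped, MLN4924 lay below both at 4 h and lower again at 8 h, and the change was -1.04 (SE 0.14, adjusted p = 0.000176 from limma). ERBB3, a receptor tyrosine kinase of the same lineage, changed by -1.0 (SE 0.12, adjusted p = 2.08e-05), and by -0.43 with the mean of its probe sets (adjusted p = 0.053). SOX10, a lineage factor, was lower with MLN4924 by 1.63 at 8 h and 0.86 at 4 h, and its change of -0.78 had an SE of 0.27 and was not called (adjusted p = 0.17).

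A few effects were present at 4 h and smaller, absent or opposite at 8 h. HHEX, a homeobox transcription factor, had signals of 463, 403 and 366 in MLN4924 at 8 h and 842, 749.7 and 811 in MLN4924 at 4 h, against 321, 309 and 321 in DMSO at 8 h and 343, 348 and 312 in DMSO at 4 h. MLN4924 lay above DMSO at both times, by 0.34 at 8 h (adjusted p = 0.0239 from limma) and by 1.18 at 4 h, a change of -0.85 (SE 0.14, adjusted p = 0.00173). TLR4, the receptor for bacterial lipopolysaccharide, was higher with MLN4924 by 0.59 at 4 h (adjusted p = 0.000128) and stood at -0.21 at 8 h (adjusted p = 0.12), a change of -0.80 (SE 0.13, adjusted p = 0.000836). SRR, serine racemase, was lower by 0.50 at 4 h and stood at 0.26 at 8 h, not called, and its change of 0.76 (adjusted p = 0.00397) was not called with the mean of its probe sets (0.245), without _x_at and _s_at probe sets (0.893) or in the fit of 12 arrays (0.0511).

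The 2 genes that turned from higher to lower were NANOS1, an RNA-binding repressor of translation, and TRIB2, a pseudokinase that brings substrates to a ubiquitin ligase. NANOS1 had signals of 160.8, 156 and 172 in MLN4924 at 8 h and 286, 274 and 296 in MLN4924 at 4 h, against 184, 241 and 243 in DMSO at 8 h and 215, 201 and 176 in DMSO at 4 h. MLN4924 lay below DMSO at 8 h and above it at 4 h, with no overlap. Its effect was -0.38 at 8 h and 0.47 at 4 h, both called, a change of -0.85 (SE 0.11, adjusted p = 0.000122 from limma). With the mean of its probe sets that was -0.39 and not called (adjusted p = 0.122). TRIB2 had signals of 512, 521.5 and 521.9 in MLN4924 at 8 h and 787, 764 and 840.4 in MLN4924 at 4 h, against 706, 611 and 676 in DMSO at 8 h and 649, 704 and 598 in DMSO at 4 h. It too lay below DMSO at 8 h and above it at 4 h without overlap. Its effect was -0.34 at 8 h and 0.28 at 4 h, both called, and the change of -0.62 (SE 0.11, adjusted p = 0.00271) was not called with median centring (-0.55, adjusted p = 0.0614).

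The DMSO arm was the one called for 6 genes, 5 of which fell with time in DMSO, while their MLN4924 arms lay between -0.06 and 0.13 and none was called. PDGFC, a growth factor for mesenchymal cells, had signals of 318.7, 305 and 395 in MLN4924 at 8 h and 311.5, 300.4 and 327 in MLN4924 at 4 h, against 188, 236 and 243 in DMSO at 8 h and 347, 352 and 317 in DMSO at 4 h. The DMSO 8 h arrays were the low ones, and the other 9 overlapped. It fell by 0.55 in the DMSO arm on the log2 scale (adjusted p = 0.0368 from limma), the MLN4924 arm was 0.10 (SE 0.11), and the change of 0.65 (adjusted p = 0.0269) was not called without each of 6 arrays (up to 0.0931).

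The transcription factor gene ZBED6 changed by 0.81 (adjusted p = 0.0105 from limma), with -0.68 in the DMSO arm. TRIM11, a ubiquitin ligase, changed by 0.53 (adjusted p = 0.0188), with -0.49 in the DMSO arm, and its call ended without each of 5 arrays (up to 0.0595). FBXO45, an F-box protein, changed by 0.48 (adjusted p = 0.0126), with -0.35 in the DMSO arm. GEMIN4, of the SMN complex, changed by 0.45 (adjusted p = 0.048), with -0.52 in the DMSO arm, and its call ended without each of 11 arrays (up to 0.128). NTRK3-AS1, an antisense transcript named after its values were seen, was the 1 that rose in DMSO, by 0.59, with every signal under the median of all genes. With the mean of their probe sets ZBED6, TRIM11, FBXO45 and GEMIN4 were not called (adjusted p of 0.105, 0.658, 0.696 and 0.183), and in the fit of 12 arrays PDGFC (0.1), ZBED6 (0.104), FBXO45 (0.108), GEMIN4 (0.0883) and NTRK3-AS1 (0.0676) were not.

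LOXL4, a lysyl oxidase that cross-links matrix, was the 1 gene called in both arms in opposite directions. Its signals were 395.5, 413 and 406 in MLN4924 at 8 h and 587, 567 and 584 in MLN4924 at 4 h, against 1211, 1086 and 1141 in DMSO at 8 h and 851, 906 and 941 in DMSO at 4 h. No groups overlapped. It fell by 0.49 in the MLN4924 arm and rose by 0.34 in the DMSO arm on the log2 scale (adjusted p = 7.25e-05 and 0.046 from limma), a change of -0.82 (SE 0.10, adjusted p = 1.86e-05) that was not called with the mean of its probe sets (-0.21, adjusted p = 0.628). IGFBP4, which binds insulin-like growth factors, came near the same split. Its signals were 726, 781 and 707 in MLN4924 at 8 h and 514, 499.6 and 497 in MLN4924 at 4 h, against 355, 232 and 259.7 in DMSO at 8 h and 463, 431 and 523 in DMSO at 4 h. The MLN4924 arm rose by 0.52 (adjusted p = 0.0408), the DMSO arm was -0.70 (adjusted p = 0.0526), and the change was 1.22 (SE 0.20, adjusted p = 0.00157).

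In the class where neither arm passed alone, the arms had opposite signs in all 57 genes, and in 46 of them neither arm made up 66.7% of the summed movement. SLC24A3, a potassium-dependent sodium and calcium exchanger, had signals of 59.7, 55.7 and 56.9 in MLN4924 at 8 h and 73.8, 92 and 84.4 in MLN4924 at 4 h, against 132.7, 113.4 and 153.8 in DMSO at 8 h and 83.8, 87.5 and 79.1 in DMSO at 4 h. At 4 h the MLN4924 and DMSO arrays overlapped, and at 8 h MLN4924 lay below and DMSO above all of them. Its arms were -0.37 and 0.51, and its change was -0.88 (SE 0.17, adjusted p = 0.00661 from limma).

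Over the 27 gene lists, 494 memberships were measured, and 40 of 487 different genes were called in the change of effect. Over all genes 1.54% were called. Besides those above, 2 of 17 MYC targets and ribosome biogenesis genes were called upwards (11.8%, against 0.753% of all genes). NOLC1 changed by 0.46 (adjusted p = 0.00574 from limma) and WDR43 by 0.48 (adjusted p = 0.0263). The call of WDR43 ended without each of 5 arrays (up to 0.0902). The mean of the probe sets of NOLC1 gave -0.09, and the adjusted p of these genes in the fit of 12 arrays was 0.071 and 0.121. DTL, the substrate receptor through which a cullin ligase degrades CDT1, was the 1 called gene of 23 in NEDD8 conjugation and cullin ligases (4.35%, against 1.54% of all genes). It changed by 0.42 (adjusted p = 0.0486), a call that ended without each of 10 arrays (up to 0.15). The second probe set of DTL, nearly as bright, gave 0.10, and the mean of both gave 0.26 (adjusted p = 0.155). The housekeeping list had 1 of 11 called (9.09%), the transferrin receptor TFRC with 0.33 (adjusted p = 0.0342). Cholesterol synthesis had 1 of 12 called (8.33%), HMGCS1 with 0.60 (adjusted p = 0.0235). These calls ended without each of 8 (up to 0.108) and 7 arrays (up to 0.074). With the mean of probe sets TFRC gave 0.05 (adjusted p = 0.904) and HMGCS1 0.23 (adjusted p = 0.239). The second brightest probe set gave 0.32 for TFRC and -0.13 for HMGCS1.

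Downward calls were 1 of 18 in the interferon response (5.56%) and 1 of 16 in the unfolded protein response (6.25%), against 0.784% of all genes. IFI44 changed by -0.70 (adjusted p = 0.00186 from limma), and a second, dimmer probe set gave 0.40 and was not called. HSP90B1, a chaperone of the endoplasmic reticulum, changed by -0.69 (adjusted p = 0.0434), a call that ended without each of 11 arrays (up to 0.133). Its other probe set gave 0.44 (SE 0.21), in the opposite direction, and the mean of both gave -0.13 (adjusted p = 0.807). The lists of HIF targets (23 measured), heat shock genes (11), BCL2 family genes (15) and proteasome subunits (27) had 0 members called by limma in the change of effect. Among all genes 1.54% were called.

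**Figure D5:**
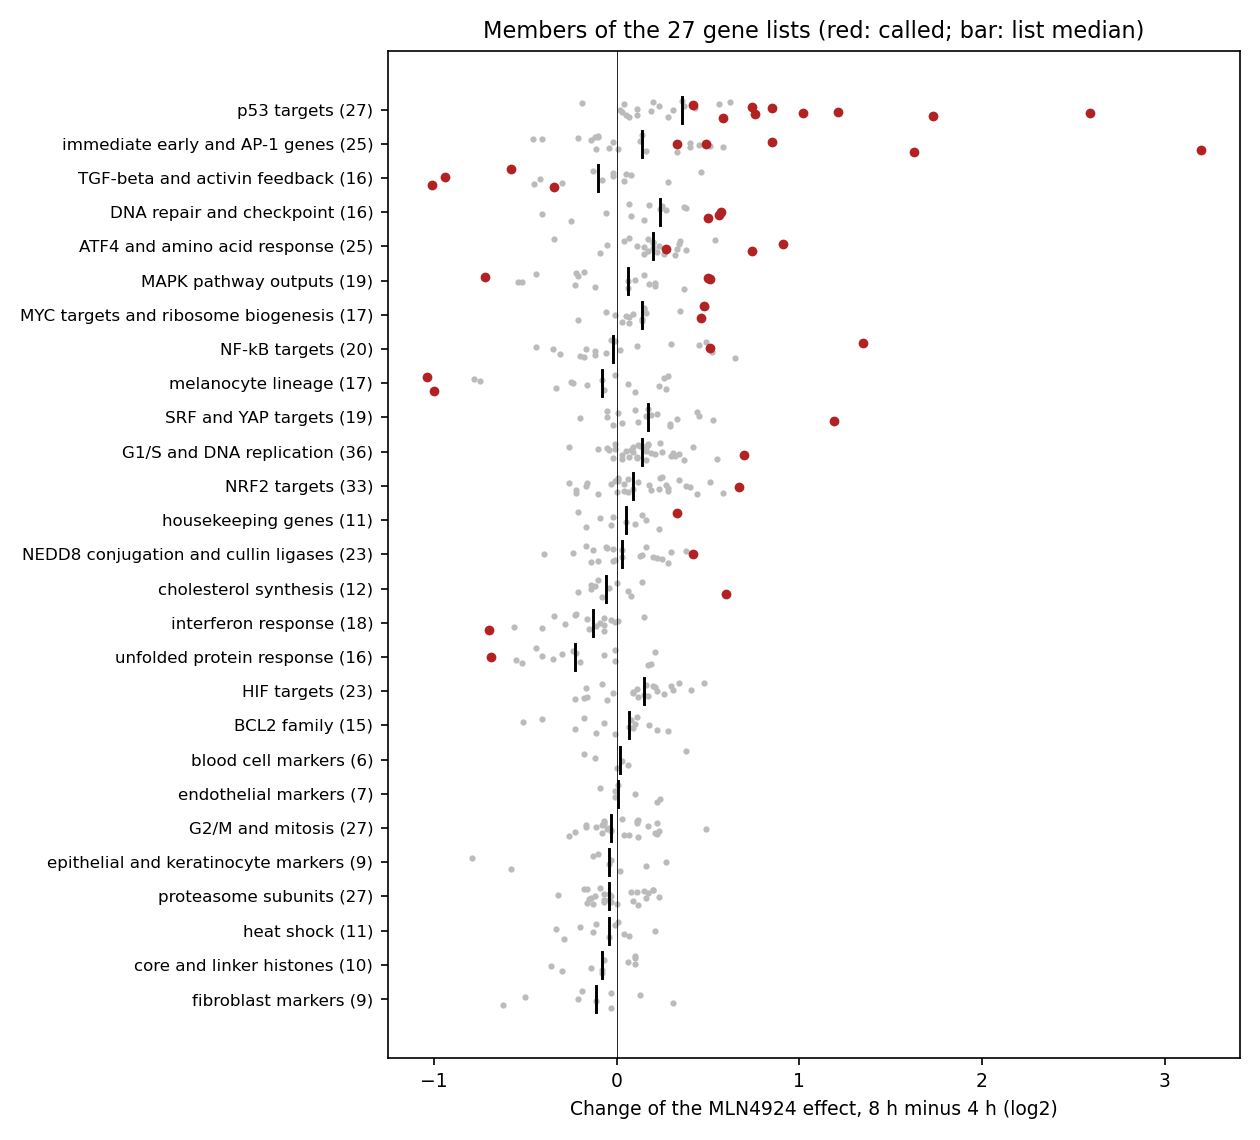
Change of the MLN4924 effect from 4 to 8 h (horizontal axis, log2) for each measured member of the 27 gene lists, with the number measured in brackets, called members in red and the list median as a bar. The p53 list has 9 members in red, all to the right of 0, the TGF-beta and activin list has 4, all to the left, and 10 lists have none.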

How the data were processed

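Transcripts were measured on 30 Affymetrix HG-U133 Plus 2.0 arrays, 3 per agent and time. The deposited values are linear probe set intensities that the authors scaled to a common trimmed mean per array, as the values themselves show. The tool was Affymetrix Expression Console, per the submitters' processing notes, and which version or algorithm was run is not stated in the sources used here. The number of arrays limits the precision.

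The intensities of all 30 arrays were quantile-normalized, 32 was added and log2 was taken. Of 54675 probe sets, 62 were controls. Each gene was read from 1 probe set, the brightest on average of those assigned to it alone, symbols were updated through gene IDs, and 41043 probe sets had an ID found in the RefSeq table. limma 3.58.1 in R 4.3.3 fitted 1 mean per group over all 30 arrays, with 20 residual degrees of freedom, and adjusted p-values by Benjamini-Hochberg over 19775 genes. The fit was tested on simulated data. Alternatives changed the scaling, added constant, filter, probe set choice, arrays fitted, variance model, threshold and replicate block, and left out each array in turn.

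Genes were named when called, brighter than the median in some group, and among the 12 largest changes each way, the 6 largest of each class of arm or effect, or the 4 largest called members of a list. To these a fixed set of 40 genes was added whatever their call, and genes of the whole selection were printed mainly where the call held without any 1 array. The comparison, lists and named genes were chosen with earlier results of these data known.

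Same-numbered replicates were checked for pairing by correlating their deviations from group means, and the numbers did not pair the arrays.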

Additional observations from a re-analysis of the deposited data

Results flagged for a closer look

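The effect of MLN4924 differed between 8 and 4 h for 304 genes by the test of the difference itself (limma). For 4 of them the effect was called at both times with opposite signs. These were EGR1, with a change of 3.20 on the log2 scale, JUND with 0.85, NANOS1 with -0.85 and TRIB2 with -0.62. Groups of 3 arrays are too small for a test of single outlying arrays, and none was made.

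Each of the 54675 probe sets was also tested on its own with limma. Among the 11777 with no gene symbol, which no comparison above used, 38 were called in the change of effect, 22 upwards and 16 downwards. Of all 54675, 380 were called, which is a larger share.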

How the results depend on the processing

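Of the 304 genes, 136 were called without each of the 12 arrays in turn and 48 in every other alternative too. The replicate numbers did not pair the arrays. With the replicate block 287 genes were called in the change of effect, 137 upwards and 150 downwards, and 267 were shared with the 304. With 1 array left out, the change of effect had 174 to 286 genes, the MLN4924 arm 506 to 819, the DMSO arm 1 to 22, the class of the MLN4924 arm 156 to 222, that of the DMSO arm 0 to 7 and that of neither arm 16 to 59. Likewise, effects called at 8 h and not at 4 h numbered 108 to 198, those larger at 8 h 50 to 69, and called list members 27 to 38. Median centring gave 105 genes in the DMSO arm and 27 in its class. With 1 added before log2, the DMSO arm had 14 genes, its class 2 and the class of neither arm 35, and with 64 added these classes had 10 and 87. With dim genes left out the class of the DMSO arm had 11 genes. With probe sets averaged per gene the DMSO arm had 10 and its class 1, and with limma trend they had 40 and 14. Without _x_at and _s_at probe sets, genes with no other probe set dropped out of the fit. There 192 genes were called, 150 in the class of the MLN4924 arm and 32 in that of neither arm. Of the 192, 117 had an effect called at 8 h and not at 4 h, and 26 were list members. In the fit of 12 arrays, 117 genes were called, with 451 in the MLN4924 arm, 1 in the DMSO arm, classes of 101, 1 and 15, 65 called at 8 h and not at 4 h, 40 larger at 8 h and 20 list members. At an adjusted p under 0.01 the counts were 116 for the change of effect, 363 for the MLN4924 arm, 1 for the DMSO arm, 1881 for the effect at 8 h and 379 at 4 h, with classes of 105, 0 and 11, 71 called at 8 h and not at 4 h, 37 larger at 8 h and 25 list members. At 2-fold or more they were 33, 17, 0, 166 and 51, with classes of 15, 0 and 18, 22 called at 8 h and not at 4 h, 2 larger at 8 h and 11 list members. By size of the arms, 17 genes fell to the DMSO arm and 88 to neither. With each probe set tested on its own, chosen after seeing the data, 380 of 54675 were called. Signs turned for FOS, which lay near 0 (0.09 with median centring, 0.03 as deposited, 0.08 with 1 and 0.02 with 16 added, and -0.20 to 0.11 with 1 array left out). With the mean of probe sets DUSP1 gave -0.08, TRIB3 -0.06 and NOLC1 -0.09, and without _x_at and _s_at probe sets GDF15 gave -0.02 and IFI44 0.40. With 1 array left out EGR3 ranged from -0.36 to 0.08 and IL17RD from -0.01 to 0.21. The causes were not tested.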
